A study of Homo sapiens with 10 samples.

Results

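Keratins are the intermediate filament proteins of epithelial cells. A type I and a type II keratin pair to form each filament, and KRT8 (type II) with KRT18 (type I) is the pair of simple, single-layered epithelium. KRT19 and KRT7 are added in ducts and mark the ductal cells of the pancreas. The 9 keratins described here were listed as ductal, simple or neighbouring epithelial types. They were KRT7, KRT8, KRT18, KRT19, KRT20, KRT80, KRT81, KRT15 and KRT17. Each was represented by its transcript cluster, a set of probes read together as 1 transcript locus, selected on the measured values as the one with the highest mean over the 10 arrays among clusters that carry this 1 symbol. Of the 9, 7 had such a cluster, out of 19229 clusters with 1 symbol on the array, and KRT81 and KRT17 were not analysed here. The list was drawn up with earlier results of these arrays known.

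The cells were Panc1, an established epithelial line from a human pancreatic carcinoma. They were transduced with adenovirus at a multiplicity of infection of 150 and harvested at 48 h, so every group, the control included, carried virus. The 5 groups were empty vector (EV), wild type KLF11, and the KLF11-A347S, KLF11-Δ486 and KLF11-EAPP mutants. KLF11 is a zinc finger transcription factor that binds GC-rich promoter sequence. A347S is a diabetes-associated substitution in its proline-rich region, Δ486 lacks the carboxy-terminal end that contacts the heterochromatin protein HP1α, and EAPP carries prolines that break the helix contacting the Sin3 corepressor. Each group had 2 Affymetrix Human Gene 1.0 ST arrays. By the methods these are technical duplicates of RNA pooled from 3 cultures, although the sample titles number them as biological replicates, so the errors and p-values below measure the spread between arrays and may leave out that between cultures.

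Values are log2 expression as deposited. Over the clusters with a symbol, array medians ranged from 6.81 to 6.87, and over clusters the arrays of a group correlated at 0.996 to 0.997. In these bulk samples, fewer cells of a type and less RNA per cell cannot be told apart. The labelled epithelial identity was checked on markers. Averaged over the EV arrays, the epithelial adhesion molecule EPCAM read 8.46, the ductal factor SOX9 8.44 and the mucin MUC1 8.06, each above 6.84, the median over the means of clusters with a symbol, whereas E-cadherin, CDH1, read 4.98 and the ductal chloride channel CFTR 3.85, below it. The transduced gene KLF11 read 8.37 and 7.75 on the EV arrays and 8.68 to 8.88 on the 8 others. All 8 lay above both EV arrays, and the files do not say whether the probes see the viral copy.

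For the sequences, promoters of KRT8 and KRT20 were held by the RefSeq promoter table (GRCh38.p14), and none of the other 7 keratins had an entry. They are shown as the ones on hand, KRT8 from among the 4 keratins with an adjusted p under 0.05 between constructs and KRT20 from among the 3 without one. Capitals mark the 6-base GC-rich motifs of the kind KLF factors bind, CCCCGC and CCCCAC, searched on both strands. The windows are the 250 bases before the annotated start, chr12:52926470-52926719 for KRT8 and chr17:40885243-40885492 for KRT20, both on the minus strand and written 5′ to 3′. The KRT8 start in the table lies inside the gene span that RefSeq gives, so its window is that of 1 annotated start and need not be the promoter used in these cells.
KRT8: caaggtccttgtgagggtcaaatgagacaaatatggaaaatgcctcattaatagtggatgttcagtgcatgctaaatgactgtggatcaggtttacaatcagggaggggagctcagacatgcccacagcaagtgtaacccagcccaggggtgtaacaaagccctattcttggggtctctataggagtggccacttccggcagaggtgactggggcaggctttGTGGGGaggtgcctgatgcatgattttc
KRT20: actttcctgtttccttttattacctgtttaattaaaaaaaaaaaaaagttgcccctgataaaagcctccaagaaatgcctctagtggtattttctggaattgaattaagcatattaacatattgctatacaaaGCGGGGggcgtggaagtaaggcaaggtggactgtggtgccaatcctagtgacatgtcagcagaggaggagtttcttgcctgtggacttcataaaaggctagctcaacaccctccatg
The KRT8 window held 1 match, to CCCCAC read on the opposite strand and starting 28 bases before the start, at a GC content of 50.4%. The KRT20 window held 1 match, to CCCCGC on the opposite strand and starting 117 bases before the start, at a GC content of 41.2%. With 1 match in each window, none overlapped another. Of 35116 promoters in the table, 39.3% held CCCCGC, 30.3% held CCCCAC and 54.1% held at least 1 of them, so a match of this kind is common and was read only as a description.

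KRT19, the type I keratin of ducts, differed most among the members between the groups. It read 10.91 and 10.76 with EV, 9.81 and 9.87 with KLF11, 9.35 and 9.29 with A347S, 10.01 and 9.53 with Δ486, and 10.39 on both arrays with EAPP. The EV arrays were the highest, the EAPP arrays came next, and the A347S arrays were the lowest, with KLF11 and Δ486 overlapping each other in between. Against EV the log2 difference was -0.99 for KLF11, -1.51 for A347S, -1.06 for Δ486 and -0.44 for EAPP (SE 0.13). These correspond to levels 1.99-fold, 2.85-fold, 2.09-fold and 1.36-fold lower. Differences against EV are given as a description throughout, since the members were chosen for reporting on them. The EAPP difference was 44.3% of that with KLF11, 29.2% of that with A347S and 41.4% of that with Δ486.

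**Figure D1:**
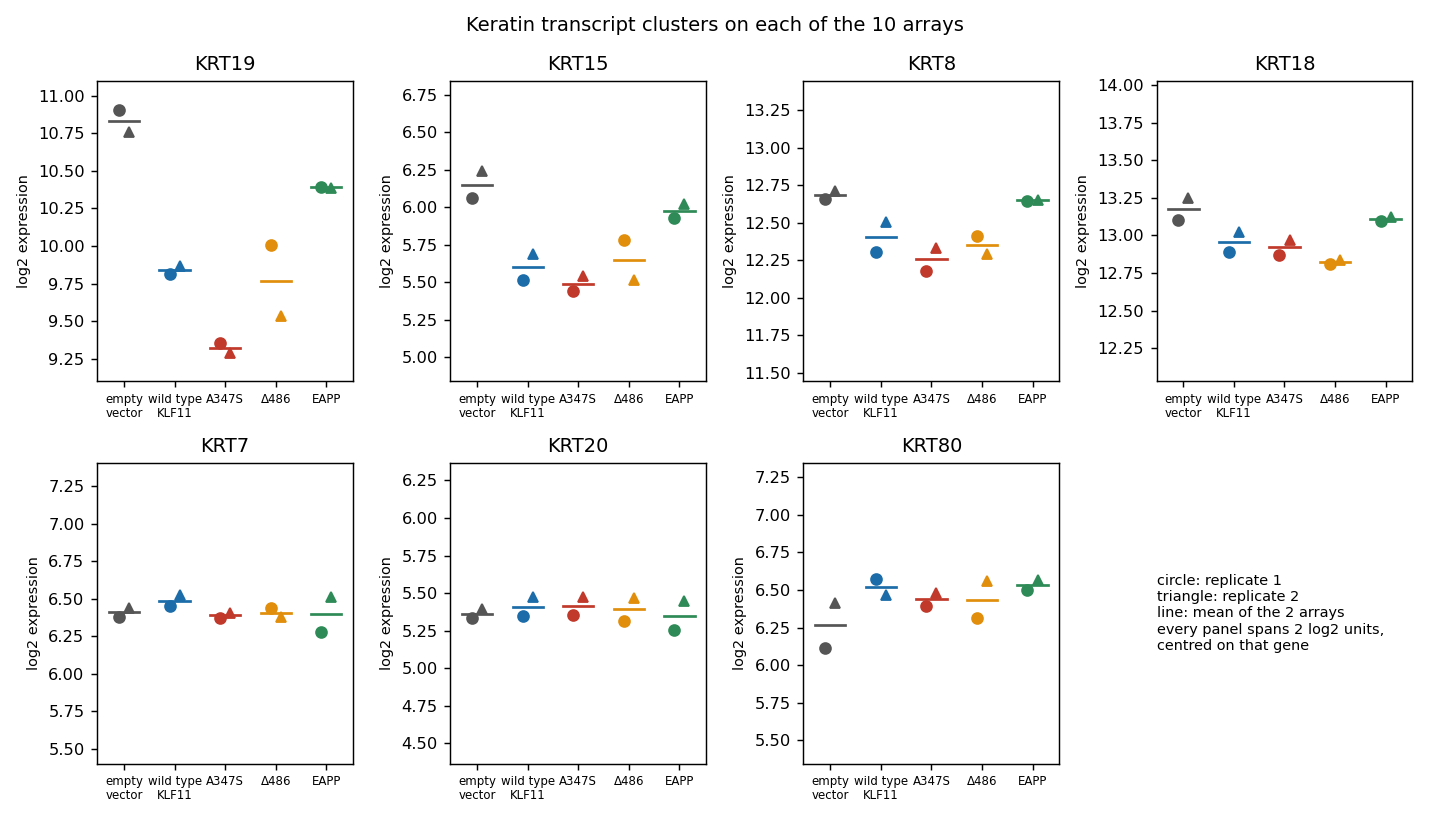
Log2 expression of the 7 keratins on each of the 10 arrays, by group, with circles and triangles for the replicates of a group and a line at their mean; every panel spans the same log2 range. KRT19 runs from 9.29 to 10.91, whereas KRT7 and KRT20 stay within 0.24 and 0.22 log2 units over all arrays.

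The comparisons that leave out the EV arrays were tested with limma, with p-values adjusted by the Benjamini-Hochberg method over 20961 clusters. A cluster is said to be called where the adjusted p was under 0.05 and the fold at least 1.5, a log2 difference of 0.585. They use the same construct arrays as the differences above and are not independent of them. KRT19 was higher with EAPP than with A347S by 1.07 (95% interval 0.77 to 1.37, adjusted p = 0.000528), a call that held with each of the 10 arrays left out in turn, at 1.04 to 1.10 and an adjusted p of at most 0.0078. It was higher with EAPP than with Δ486 by 0.62 (0.33 to 0.92, adjusted p = 0.0123). Here 1 array decided the size, because the Δ486 arrays lay 0.47 apart. Without Δ486 replicate 2 the difference was 0.39, under the fold threshold, and without EAPP replicate 1 or EAPP replicate 2 the adjusted p was 0.0576 and 0.057. Between EAPP and KLF11 the difference was 0.55 (0.26 to 0.85, adjusted p = 0.0278), just short of the fold threshold. That p rose to between 0.0848 and 0.157 when either KLF11 array or either EAPP array was left out, and to 0.0513 with the clusters that carry no symbol tested as well.

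The 3 other comparisons of KRT19 did not pass the test. A347S lay 0.52 below KLF11 (interval of the difference -0.81 to -0.22, adjusted p = 0.185) and 0.45 below Δ486 (-0.74 to -0.15, adjusted p = 0.642), with no overlap of arrays in either case. Δ486 and KLF11 differed by -0.07 (-0.37 to 0.23, adjusted p = 0.867) and their arrays overlapped. In the order EV, EAPP, KLF11, Δ486 and A347S, the step between EAPP and KLF11 was the only one with an adjusted p under 0.05. The step between EV and EAPP, a description here, had no overlap of arrays and did not reach that threshold either.

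KRT15, a type I keratin of basal epithelial cells, is the gene next to KRT19 in the type I keratin cluster on chromosome 17. Its values were 6.06 and 6.24 with EV, 5.51 and 5.69 with KLF11, 5.44 and 5.54 with A347S, 5.78 and 5.51 with Δ486, and with EAPP 5.93 and 6.02. The EV arrays were again above all others, the EAPP arrays above those of the other 3 constructs, and the other 3 overlapped. Differences from EV were -0.55 for KLF11, -0.66 for A347S, -0.50 for Δ486 and -0.18 for EAPP (SE 0.11). EAPP exceeded A347S by 0.49 (0.24 to 0.73, adjusted p = 0.011), under the fold threshold, and the adjusted p was 0.0688 without EAPP replicate 2 and 0.0702 without A347S replicate 1. Its differences from KLF11 (0.38, 0.13 to 0.63, adjusted p = 0.0601) and from Δ486 (0.33, 0.08 to 0.58, adjusted p = 0.081) did not pass. With single arrays left out, the first ranged from 0.29 to 0.46 (adjusted p 0.0407 to 0.317) and the second from 0.19, without Δ486 replicate 2, to 0.46, without Δ486 replicate 1 (adjusted p 0.0414 to 0.353). The cluster was dim, with its mean at the 30.3rd percentile of all cluster means, and no detection calls were used here.

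KRT8 and KRT18, the partners of the simple-epithelial filament, lie next to each other on chromosome 12. KRT8 read 12.66 and 12.71 with EV, 12.31 and 12.50 with KLF11, 12.18 and 12.33 with A347S, 12.41 and 12.29 with Δ486, and 12.65 on both EAPP arrays. The EV and EAPP arrays stood together above the 6 others, which overlapped. Its differences from EV were -0.28, -0.43 and -0.33 with KLF11, A347S and Δ486 and -0.03 with EAPP (SE 0.09). EAPP exceeded A347S by 0.39 (0.19 to 0.60, adjusted p = 0.0116), with an adjusted p of 0.054 without EAPP replicate 2 and 0.0814 without A347S replicate 1. The differences from Δ486 (0.30, 0.10 to 0.50, adjusted p = 0.0544) and from KLF11 (0.24, 0.04 to 0.45, adjusted p = 0.126) did not pass.

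KRT18 read 13.10 and 13.25 with EV, 12.89 and 13.02 with KLF11, 12.87 and 12.97 with A347S, 12.81 and 12.83 with Δ486, and with EAPP 13.10 and 13.12. These values are from the brightest of its clusters with 1 symbol, and in it EV and EAPP overlapped. Both lay above the other 6 arrays, as for its partner. The differences from EV were -0.22, -0.25, -0.35 and -0.06 with KLF11, A347S, Δ486 and EAPP (SE 0.08). EAPP exceeded Δ486 by 0.29 (0.10 to 0.47, adjusted p = 0.0436), but the adjusted p was 0.0514 to 0.147 with any 1 of the 10 arrays left out. The differences from A347S (0.19, adjusted p = 0.139) and KLF11 (0.15, adjusted p = 0.295) did not pass. KRT18 has a further cluster of its own, and 1 that it shares with MIR622. EV and EAPP overlapped in neither. In the further cluster both EAPP arrays read 11.58, below EV (11.67 and 11.70) and just below KLF11 replicate 2 (11.59). In the shared cluster EAPP read 13.58 and 13.59, below EV at 13.65 and 13.77. The further cluster differed from EV by -0.17, -0.33, -0.23 and -0.10 in the same order of constructs, the same sign with each, and its EAPP level exceeded that of A347S by 0.23 (adjusted p = 0.0498), a comparison that the brighter cluster did not pass. The pass of the brighter cluster for EAPP against Δ486 was lost in both others, at 0.13 (adjusted p = 0.288) in the further cluster and 0.22 (adjusted p = 0.0876) in the shared one. The annotation lists the same KRT18 transcripts for all 3 clusters, so they are not separate evidence on the gene. Cluster positions are not given here, so which of the 3 lies at the KRT18 gene on chromosome 12 is not known. The brightest one need not be it.

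The remaining members showed no call in any of the 10 comparisons. KRT7, the type II keratin usually found with KRT19 in ducts, ranged from 6.28 to 6.52, and its differences from EV were 0.08, -0.02, -0.00 and -0.01 with KLF11, A347S, Δ486 and EAPP (SE 0.09). KRT20, a type I keratin of intestinal epithelium, ranged from 5.25 to 5.48 with differences of 0.05, 0.05, 0.03 and -0.01 (SE 0.10). KRT80, a type II keratin of many epithelia, ranged from 6.11 to 6.58 and lay 0.26, 0.17, 0.17 and 0.27 above EV (SE 0.12), with the lowest value on EV replicate 1. Between EAPP and the other 3 constructs, the intervals for KRT7 stayed within -0.29 and 0.20, those for KRT20 within -0.28 and 0.18 and those for KRT80 within -0.25 and 0.36. These clusters and that of KRT15, 4 of the 7, had means under the median over clusters with a symbol. KRT7 and KRT80 lay above the array medians over clusters with or without one, which were at most 6.32.

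**Figure D2:**
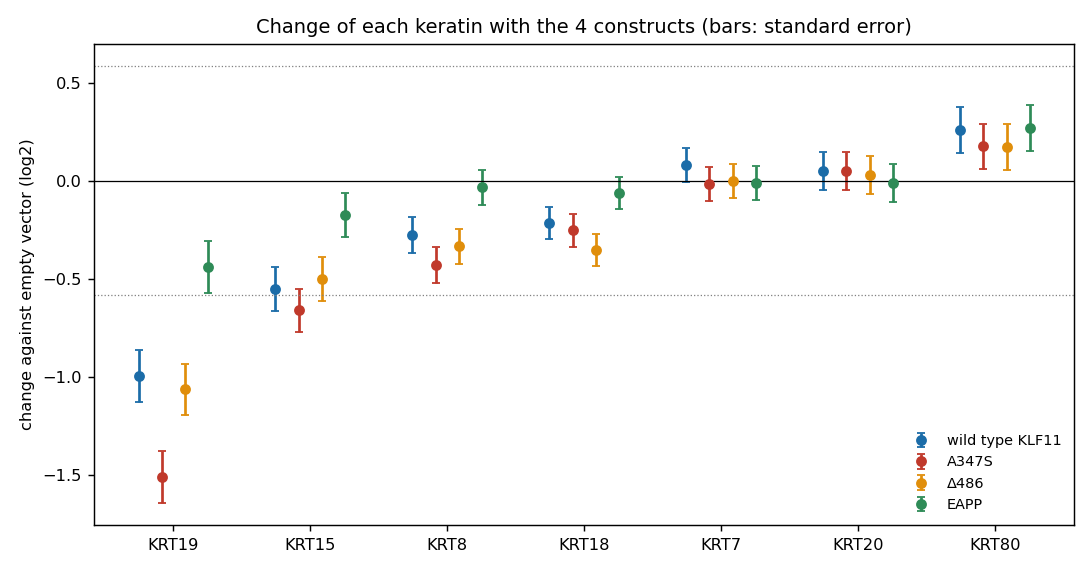
Log2 difference of each keratin from EV with the 4 constructs; points are fitted means, bars are standard errors and dotted lines mark the 1.5-fold. KRT19 lies lowest with A347S at -1.51, and EAPP is the construct nearest to 0 for KRT19, KRT15, KRT8 and KRT18.

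Counted over the 7 measured members, 1 was called against EV with KLF11, 2 with A347S, 1 with Δ486 and 0 with EAPP, all lower. Of all clusters tested, 3.99%, 8.98%, 5.61% and 0.00477% were called in these comparisons. KRT19 made up the calls with KLF11 and Δ486, and KRT15 was the other with A347S. KRT15 lost that call without EV replicate 2, where its difference was -0.57. It gained one with KLF11 without EV replicate 1 (-0.64) or KLF11 replicate 2 (-0.64), and with Δ486 without EV replicate 1 (-0.59) or Δ486 replicate 1 (-0.64). By the adjusted p alone the counts were 2, 4, 4 and 0, beside 17.3%, 28.4%, 22.4% and 0.00477% of all clusters. The 0 for EAPP is limma's count, with 2 members at an unadjusted p under 0.05, KRT19 and KRT80. Nothing is read from these counts, since the differences from EV belong to the choice of the members.

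Of the EAPP comparisons, 0 of the 7 members were called against KLF11, 1 against A347S and 1 against Δ486, in both cases KRT19, beside 2.51%, 6.01% and 3.26% of all clusters. By the adjusted p alone 1, 3 and 2 members were higher with EAPP, beside 10.8%, 23.4% and 15.0%. Against KLF11 this was KRT19, against A347S KRT19, KRT15 and KRT8, and against Δ486 KRT19 and KRT18. The median difference over the 7 was 0.15, 0.19 and 0.29, and over all clusters 0.03, 0.01 and -0.01. With 3 members at an unadjusted p under 0.05 in limma, the 0 against KLF11 rests on the thresholds. Among wild type KLF11, A347S and Δ486, no member was called or passed the adjusted p, and the same was true of 0% of all clusters by both rules in each of the 3 comparisons. At an unadjusted p under 0.05, limma gave 1 member for A347S against KLF11, 0 for Δ486 against KLF11 and 1 for A347S against Δ486, out of 3017, 2211 and 1557 clusters.

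**Figure D3:**
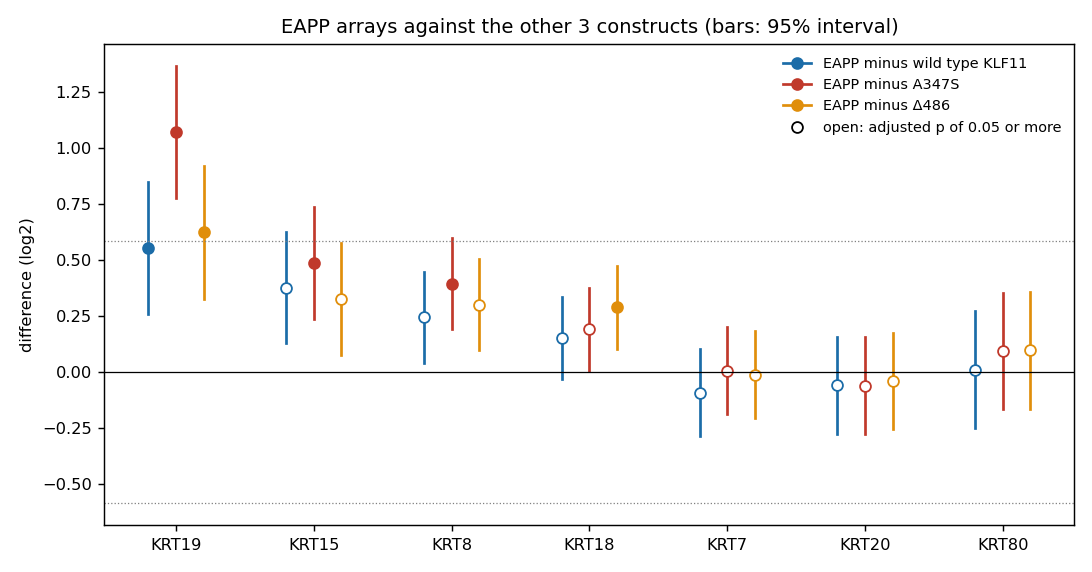
Log2 difference between the EAPP arrays and those of KLF11, A347S or Δ486 for each keratin, with 95% intervals; filled points had an adjusted p under 0.05 and dotted lines mark the 1.5-fold. KRT19 has the largest differences, up to 1.07 against A347S, and KRT7, KRT20 and KRT80 have intervals that include 0 in all 3 comparisons.

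The other keratin genes of the array, 41 with a cluster of 1 symbol, showed 0 calls in each of the 10 comparisons. Of all clusters, 3.99%, 8.98%, 5.61% and 0.00477% were called against EV with KLF11, A347S, Δ486 and EAPP. For EAPP against KLF11, A347S and Δ486 the shares were 2.51%, 6.01% and 3.26%, and among those constructs 0%. Nothing is read from the 0 over these dim clusters. By limma's unadjusted p under 0.05 there were 0 to 6 of them. All 41 had means under the median of cluster means, from 3.37 to 6.80, where with the clusters without a symbol included the array medians are lower, at most 6.32. Their median difference was -0.07, -0.00, 0.04 and 0.04 against EV with KLF11, A347S, Δ486 and EAPP. By the adjusted p alone, KRT74, a hair follicle type II keratin, was higher with A347S than with EV by 0.33 and higher with EAPP than with KLF11 by 0.38 (adjusted p = 0.034), and KRT33A, a type I hair keratin, lay 0.29 below EV with A347S. The range over the 41 was -0.21 to 0.32 for EAPP against A347S, in which KRT19 differed by 1.07.

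**Figure D4:**
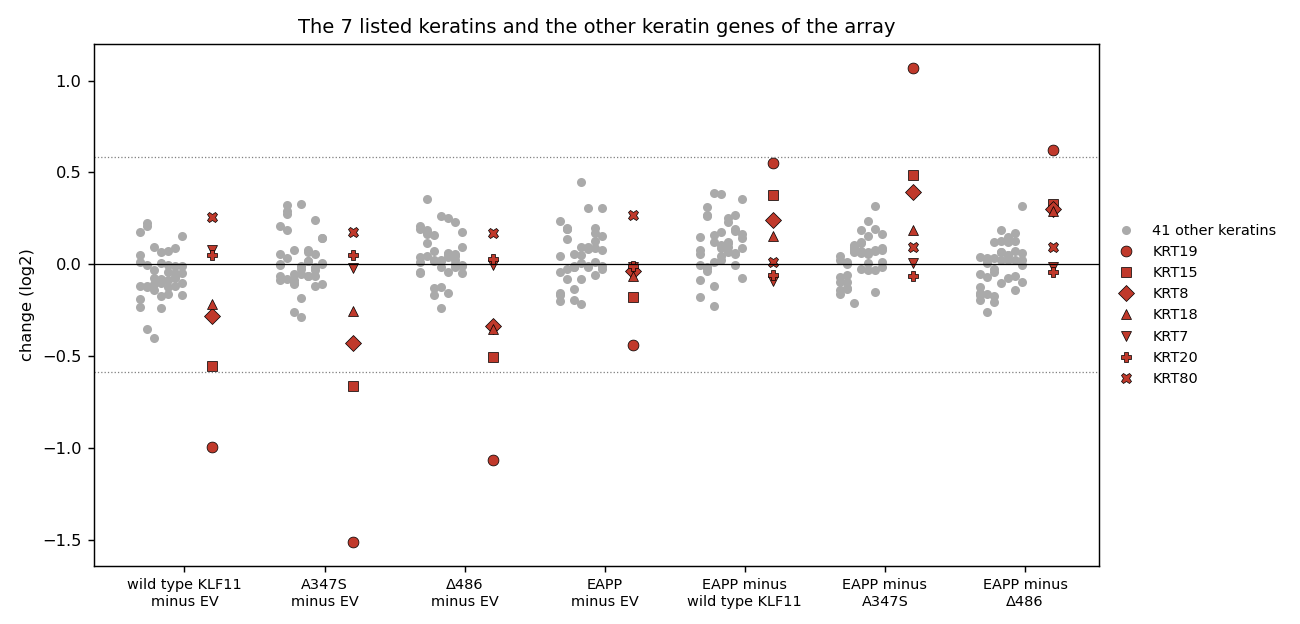
Log2 differences of the 7 listed keratins (red, a symbol for each gene) and the 41 other keratin genes (grey) in the 4 comparisons with EV and the 3 of EAPP with the other constructs; dotted lines mark the 1.5-fold. The grey points span -0.29 to 0.33 for A347S minus EV, where KRT19 is at -1.51 and KRT15 at -0.66.

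Keratin filaments end on desmosomes and hemidesmosomes, where linker proteins attach them. Of 24 listed linker genes 22 were measured and 0 were called. By the adjusted p alone 4, 5, 4 and 0 were lower than EV with KLF11, A347S, Δ486 and EAPP, and 3, 4 and 3 were higher with EAPP than with KLF11, A347S and Δ486. Shares of all clusters, in both directions, were 17.3%, 28.4%, 22.4% and 0.00477% against EV and 10.8%, 23.4% and 15.0% for EAPP, so the counts are near the background and no result about the linker genes. JUP, the desmosomal plaque protein plakoglobin, read 8.29 and 8.25 with EV, 7.76 and 7.75 with KLF11, 7.72 and 7.70 with A347S, 7.90 and 7.70 with Δ486, and with EAPP 8.26 and 8.29. Its EV and EAPP arrays overlapped above the 6 others, and EAPP exceeded KLF11 by 0.52 (adjusted p = 0.00417). PLEC, which encodes the linker plectin, and ITGA6, the hemidesmosomal integrin subunit α6, were likewise higher with EAPP than with KLF11, by 0.42 and 0.30 (adjusted p = 0.017 and 0.0383). PKP4, a plakophilin, differed from KLF11 by 0.11 with EAPP (adjusted p = 0.389) and from A347S by 0.25 (adjusted p = 0.0369).

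Among 13 intermediate filament genes that are not keratins, all measured, 0 were called. VIM, the mesenchymal filament protein vimentin, lay 0.31, 0.48, 0.38 and 0.13 below EV with KLF11, A347S, Δ486 and EAPP (SE 0.07). EAPP exceeded A347S by 0.35 in VIM (adjusted p = 0.00423) and by 0.43 in NES, which encodes nestin (adjusted p = 0.00462). VIM, the filament of mesenchymal cells, was thus lower on the KLF11, A347S and Δ486 arrays, as were KRT8 and KRT18. With EAPP it read 12.41 and 12.36, also below EV at 12.52 and 12.51. By the adjusted p alone, 1, 2, 2 and 0 of the 13 lay below EV with KLF11, A347S, Δ486 and EAPP, and 2 were higher with EAPP than with A347S and likewise than with Δ486. The shares of all clusters, 17.3%, 28.4%, 22.4% and 0.00477% against EV and 23.4% and 15.0% for EAPP, were no smaller in any of these comparisons but EAPP against Δ486, where they were alike.

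Of 24 transcription factors of epithelial and ductal genes 21 were measured. With A347S, TFAP2C lay above EV and FOXA2 below it, both called, and the counts with the other 3 constructs were 0. In that comparison 8.98% of all clusters were called, near the share in this list. TFAP2C, which encodes the epithelial factor AP-2γ, was lower with EAPP than with A347S by 0.71 (adjusted p = 0.000779) and than with Δ486 by 0.59 (adjusted p = 0.00356), the reverse of the direction of KRT19. The related TFAP2A was higher with EAPP than with A347S by 0.36 (adjusted p = 0.0424), under the fold threshold. FOXA2, a forkhead factor of foregut epithelium, differed by 0.35 in that comparison (adjusted p = 0.0921).

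Of 10 epithelial and ductal markers 9 were measured, and they did not share a direction. CLDN4, a tight junction claudin, was called lower than EV with A347S, and the ductal carbonic anhydrase CA2 was called higher than EV with A347S and Δ486. The shares of all clusters called were 8.98% with A347S and 5.61% with Δ486. EAPP exceeded A347S by 0.49 in CLDN4 (adjusted p = 0.00103) and lay below Δ486 by 0.76 in CA2 (adjusted p = 0.000628). Markers of other cell types showed 0 calls in each of the 10 comparisons, with 9 of 12 acinar, 5 of 10 endocrine, 7 of 7 stromal, 5 of 5 leukocyte and 4 of 6 basal and stratified genes measured. Over the 10 comparisons 0% to 8.98% of all clusters were called, so 0 in lists this short is no result about the markers. Without the fold threshold the endocrine factor PAX6 was lower with EAPP than with KLF11 (-0.31, adjusted p = 0.036) and the stromal collagen gene COL1A1 higher with EAPP than with A347S (0.23, adjusted p = 0.0355). COL1A1 also lay 0.34 below EV with A347S, and the smooth muscle actin gene ACTA2 0.50 above EV with Δ486, both with an adjusted p under 0.05. Their part in the keratin differences was not tested.

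The clusters whose profile lay nearest to KRT19 were found by the root mean square difference of values centred on each gene's own mean, over 10 arrays and 19221 candidates with 1 symbol. They were CDC25B, a cell cycle phosphatase (0.107), ANKRD50, an endosomal ankyrin repeat protein (0.116), CIB1, a calcium- and integrin-binding protein (0.116), TOB1, an antiproliferative protein (0.126), and TGFBR1, the type I TGFβ receptor (0.127). The median over all candidates was 0.549. CDC25B, for example, read 8.91 and 8.81 with EV, 7.91 and 8.04 with KLF11, 7.61 and 7.35 with A347S, 7.99 and 7.88 with Δ486, and with EAPP 8.50 and 8.48. All 5 had the order of KRT19 at both ends, with EV highest, EAPP next and A347S lowest. This comes with their choice by nearness on the same arrays and is no separate result. The listed keratins were left out of the candidates. None of the 41 other keratin genes was among the 5, and nothing is read from this. Values of those keratins ranged by at most 0.71 over the arrays, against 1.62 for KRT19, and the distance was not scaled for range.

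**Figure D5:**
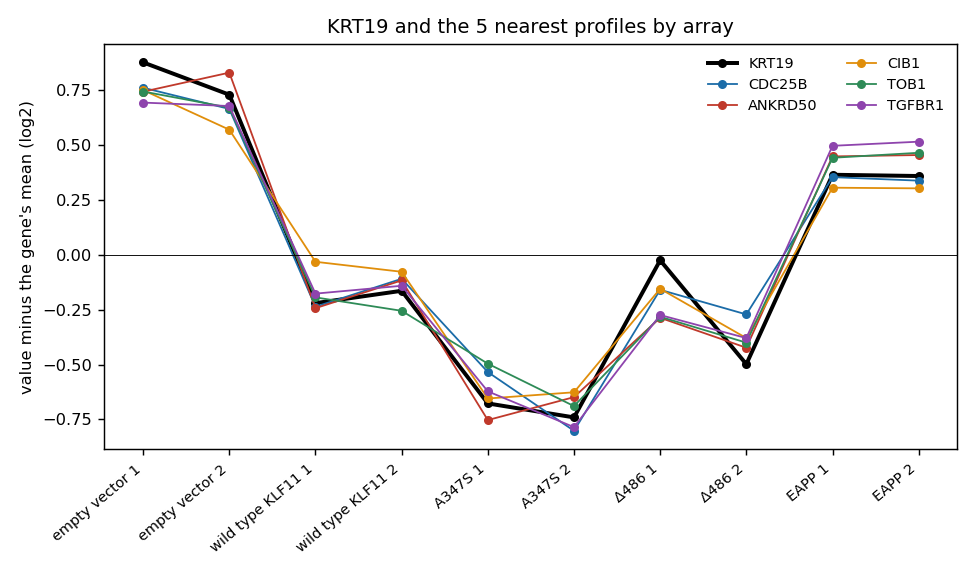
Log2 value minus the gene's own mean over the 10 arrays for KRT19 (black) and the 5 genes with the nearest profile; lines join the arrays for legibility only. The EV and EAPP arrays lie above 0 and the A347S arrays lie lowest for all 6 genes, which comes with the choice by nearness.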

How the data were processed

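Panc1 cells given EV, wild type KLF11 or its EAPP, A347S or Δ486 mutant were profiled on 10 Human Gene 1.0 ST arrays, 2 per group. The authors subtracted background and normalized by Robust Multiarray Analysis, and the values deposited are log2 expression per transcript cluster, from 1.85 to 14.56. The submitters' processing notes name Partek 6.6. The array's genome build and probe positions are not given in the sources used here, so the coordinates printed are those of the RefSeq promoter windows alone.

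The files' platform annotation gave 19229 clusters 1 symbol, 1732 several and 7908 none. Clusters with a symbol, 20961, were tested, and none with several was named, except that shared by MIR622 and KRT18. The gene numbers of the 7 measured keratins matched RefSeq with the same symbol. In limma 3.58.1 (R 4.3.3), 5 group means were estimated from the 10 arrays together (5 residual degrees of freedom, 4.54 from moderation, median SE 0.095), without the replicate number, for 10 comparisons. The number of arrays limits the precision. The pipeline was tested on simulated data. Calls needed a Benjamini-Hochberg adjusted p under 0.05 and a fold of 1.5. The methods give 1.5 as a log2 threshold, which was an alternative.

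The members and gene lists were chosen with earlier results of these data known. Named genes are the members, other keratins by smallest adjusted p, the 5 profiles nearest to KRT19, and KLF11. From the other lists, genes were taken among the 4 members with the smallest adjusted p, and not all of these were named. EPCAM, MUC1, CDH1 and CFTR were named as identity markers. Alternatives covered the test, thresholds, scaling, the removal of dim clusters, the testing of unnamed ones, several clusters per gene, a replicate block and each array left out. Figures used matplotlib 3.10.9 in Python 3.11.15.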

Additional observations from a re-analysis of the deposited data

How the results depend on the processing

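The number of called keratins stayed the same in all 10 comparisons with a variance trend and robust moderation, with arrays centred on their median, with cyclic loess, with quantile normalization, with clusters without a symbol tested and with the mean of a gene's clusters. A plain t-test, on the arrays of the compared groups only, was run too. The authors' t-test had a further Bayesian step, so counts from the plain one are not theirs. With the plain t-test at an unadjusted p under 0.05 the count was 0 for Δ486 against EV and 0 for EAPP against Δ486. With the plain t-test after Benjamini-Hochberg adjustment it was 0 for KLF11, A347S and Δ486 against EV and 0 for EAPP against A347S and Δ486. Without the fold threshold it was 2, 4 and 4 for KLF11, A347S and Δ486 against EV, and 1, 3 and 2 for EAPP against KLF11, A347S and Δ486. At a log2 difference of at least 1.5 it was 0, 1 and 0 for KLF11, A347S and Δ486 against EV and 0 for EAPP against A347S and Δ486. With dim clusters left out, which removed 4 members, it was 1 for A347S against EV. Leaving out each array in turn gave 1 to 2 calls for KLF11, A347S and Δ486 against EV, 1 to 1 for EAPP against A347S, 0 to 1 for EAPP against Δ486 and 0 to 0 in the other 5 comparisons, the lone array being assumed to vary like the other groups. Of 1360 recomputed differences of single clusters, 1344 kept their side of the call threshold, 12 lost the call and 4 gained one. Most of the 1360 were not called in the main fit, and only the few called there could lose a call. The 1344 is therefore no measure of how well the calls held. Of those called in the main fit, 0 reversed direction. Differences not called there were not checked for direction, and some changed sign. For KRT19, Δ486 against KLF11 ran from -0.31 to 0.17 with single arrays left out. On the adjusted p alone, under cyclic loess and quantile normalization KRT15 passed for EAPP against Δ486 (0.0342 and 0.0359) and KRT18 did not (0.0504 and 0.0605), nor did KRT18 with the mean of clusters (0.0944) or unnamed clusters tested (0.0737), where KRT19 did not pass against KLF11 (0.0513). With a variance trend KRT8 passed for EAPP against KLF11 (0.0184) and Δ486 (0.00388), as it did with dim clusters left out (0.0462 and 0.0157), and KRT18 passed against A347S (0.0138). Same-numbered arrays did not deviate together: over 10 pairs of groups the correlation of their deviations ran from -0.35 to 0.15, with 1 pair over 0.1. The replicate block gave 1, 2, 1 and 0 calls for KLF11, A347S, Δ486 and EAPP against EV, as without it, and changed no other count. Dim signal limits what can be said of KRT7, KRT15, KRT20 and KRT80.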

Other observations

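Keratin pseudogenes, chosen after their values were seen, had 5 clusters on the array. KRT8P41, a pseudogene of KRT8, ranged from 6.28 to 6.79 over the 10 arrays. KRT18P55 and KRT18P59, pseudogenes of KRT18, ranged from 6.68 to 7.11 and from 5.41 to 5.79. From EV, KRT18P55 differed by -0.30, -0.20, -0.10 and 0.01 with KLF11, A347S, Δ486 and EAPP (SE 0.09). With KLF11 its adjusted p in limma was 0.0494, under the fold threshold, where 17.3% of all clusters had one under 0.05. The clusters of KRT17P5, a pseudogene of KRT17, lay between 5.89 and 6.82. The files do not say how far probes of KRT8 or KRT18 also match these copies.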
